A study of Mus musculus with 12 samples.

Results

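The miR-129 pair consists of the precursors mmu-mir-129-1 and mmu-mir-129-2. They are 2 of the 1532 precursors (997 of them annotated) that held a read in small RNA libraries labelled as mouse retina. The extraction text mentions an exosome pellet. All sequences listed under either precursor name were taken, each counted once, which gave 316875 of 62878432 reads, or 0.504%. No sequence of the pair was listed under a precursor outside it. The 12 libraries fall into 6 from db/db mice treated with Keluoxin, a Chinese herbal capsule, and 6 from db/db mice labelled model. The strain label reads C57BL/KsJ-db/db in model replicate 1, and the number before BL is 1 higher in each further library, up to C68BL/KsJ-db/db in Keluoxin replicate 6; that number was not used. Both groups share the db/db genotype, a loss of leptin receptor signalling with obesity and diabetes. Age, dose and length of treatment are not stated in the labels, no non-diabetic mice were analysed here, and the labels do not say whether each library came from a separate animal.

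miR-129 is a vertebrate miRNA found mainly in neurons, in brain and retina. A miRNA hairpin is cut into a 5p and a 3p arm, and one of them is loaded into an Argonaute protein, which it guides to messenger RNAs by pairing through the seed, bases 2 to 8. In rodent neurons miR-129-5p is known to hold back translation of a voltage-gated potassium channel. The copies come from separate loci, make the same 5p arm and make 3p arms that differ near the 3′ end, so the 3p reads are the ones that can tell the loci apart.

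The sequences below are shown because the counting of the pair rests on them. The hairpins are from RefSeq (GRCm38.p6), with the 5p arm and the 3p arm in capitals, and both were equal to the precursor sequences in the deposited tables.
mmu-mir-129-1: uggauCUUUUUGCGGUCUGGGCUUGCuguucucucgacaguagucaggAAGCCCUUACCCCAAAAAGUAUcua
mmu-mir-129-2: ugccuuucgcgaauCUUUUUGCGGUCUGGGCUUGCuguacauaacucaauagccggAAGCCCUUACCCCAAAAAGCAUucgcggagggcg
The mature arms follow with the seed in capitals. The first and the last are RefSeq entries, and miR-129-1-3p is the most frequent exact 22-nt 3p read of its precursor in the deposited tables.
miR-129-5p: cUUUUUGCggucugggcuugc
miR-129-1-3p: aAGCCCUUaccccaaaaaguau
miR-129-2-3p: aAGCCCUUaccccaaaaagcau
Both 3p arms carry the same seed. They differ by 1 base in 22, U20C (mir-129-1 first, counted from 1 at the 5′ end of the 3p arm). The hairpins share a run of 26 bases that holds the whole 5p arm and a run of 21 bases that ends just before base 20 of the 3p arm. Of 1738 mature entries in the RefSeq table, the 2 with the 5p seed UUUUUGC are both miR-129-5p, and the only one with the 3p seed AGCCCUU is miR-129-2-3p.

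In GRCm38, mmu-mir-129-1 lies on the plus strand of chromosome 6 (chr6:29022619-29022691), within an exon of the long noncoding RNA gene Gm3294 on the same strand, by the GENCODE M21 annotation. The nearest other protein-coding or long noncoding gene is Lep, which encodes leptin, 37.5 kb away. mmu-mir-129-2 lies on the minus strand of chromosome 2 (chr2:94241364-94241453), within an intron of the long noncoding RNA gene Mir670hg. A further annotated precursor, Mir129b, covers part of it on the opposite strand (chr2:94241378-94241442), and no read was listed under that name.

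Of the reads of the pair, 252885 (79.8%) lay on the 5p arm and 63990 (20.2%) on the 3p arm. On the 5p arm 99.9% of the reads matched both copies, and only 98 reads were listed under mir-129-1 alone and 82 under mir-129-2 alone. On the 3p arm 8601 reads (13.4%) matched mir-129-1 alone, 52044 (81.3%) mir-129-2 alone and 3345 (5.23%) both. The pair is therefore described as 4 arms, miR-129-5p, miR-129-1-3p, miR-129-2-3p and the 3p reads of both copies, called miR-129-3p here. All 4 passed the filter on low counts, and the copy-specific 5p reads, at most 21 per library, did not. Libraries held 1933375 to 7892147 counted reads, with the fewest in Keluoxin replicate 5 and the most in model replicate 3. Each library held 7588 to 36987 reads of miR-129-5p, 1157 to 8737 of miR-129-2-3p, 146 to 1270 of miR-129-1-3p and 51 to 529 of miR-129-3p.

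miR-129-5p was lower in Keluoxin than in model libraries, by a call that was lost in some other settings, as given further on. It ranged from 2430 to 3997 CPM (counts scaled to the TMM-adjusted size of the library) with a median of 3607 in the 6 Keluoxin libraries, and from 4154 to 4938 CPM with a median of 4683 in the 6 model libraries. All 6 Keluoxin libraries lay below all 6 model libraries, a pattern that 4.01% of the 847 arms tested had. The means were 3477 ± 566 CPM in Keluoxin and 4607 ± 332 CPM in model (SD, n = 6 each), a log2 fold change of -0.41 ± 0.12 (SE) with an adjusted p of 0.0333 in edgeR's quasi-likelihood test. It was the 33rd most abundant arm. By this test 7.79% of all arms were lower in Keluoxin (66 arms, against 76 higher), as were 9.14% of the 547 annotated ones. In a bulk sample, fewer cells of a type and less RNA per cell cannot be told apart.

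Reads listed as miR-129-1-3p, the 3p arm of the chromosome 6 copy, were also lower, but 61.8% of them are 20-nt reads, most of which cannot be assigned to a copy for certain, as described further on. It ranged from 76.9 to 156 CPM with a median of 94.0 in Keluoxin, and from 123 to 181 CPM with a median of 165 in model. In Keluoxin 5 of the 6 libraries lay below all model libraries, and replicate 4 lay among them. The log2 fold change was -0.58 ± 0.18 (SE), with an adjusted p of 0.0453 in the same fit. With only the 3289 reads of at least 21 nt, a limit chosen after the values were seen, the arm averaged 46.4 ± 9.91 CPM in Keluoxin and 55.1 ± 4.98 CPM in model (SD, n = 6 each). The log2 fold change was then -0.25 and the edgeR adjusted p 0.251, so a fall of the chromosome 6 copy itself was not shown.

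miR-129-2-3p, the 3p arm of the chromosome 2 copy and the more abundant of them, did not pass the test. It ranged from 479 to 1158 CPM with a median of 597 in Keluoxin, and from 844 to 1002 CPM with a median of 870 in model. Here 5 Keluoxin libraries lay below all model libraries, and replicate 4 lay above them all. The log2 fold change was -0.38 ± 0.19 (SE), with an adjusted p of 0.178 by edgeR. The 3p reads of both copies ranged from 26.9 to 70.1 CPM with a median of 34.0 in Keluoxin and from 42.8 to 73.4 CPM with a median of 65.9 in model, a log2 fold change of -0.66 ± 0.23 (SE) with an adjusted p of 0.0702. That the difference passed for some of these arms and not for others does not show that the arms differ from each other.

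**Figure D1:**
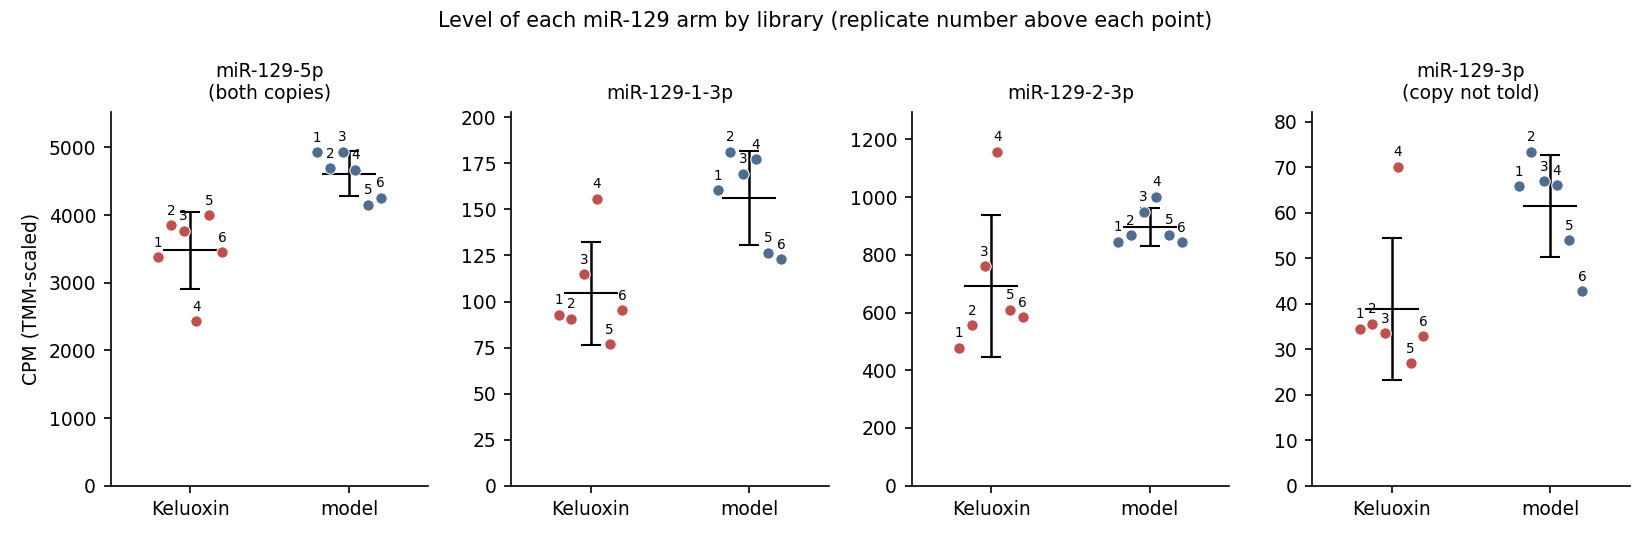
CPM (TMM-scaled) of the 4 miR-129 arms in each library, Keluoxin at left and model at right, with the replicate number above each point and the mean and SD (n = 6 each) in black. Keluoxin replicate 4 has the lowest miR-129-5p (2430 CPM) and the highest miR-129-2-3p (1158 CPM) of the 12 libraries.

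Both calls depended on the scaling, on the arms entered and on single libraries. With libraries scaled to total reads the adjusted p was 0.0928 for miR-129-5p (log2 fold change -0.24) and 0.279 for miR-129-1-3p (-0.37), and the split of all calls was 95 higher and 26 lower, against 76 and 66 with TMM and 71 and 122 with upper quartile scaling. The median over all arms was 0.03 (log2) with TMM, 0.21 with total reads and -0.22 with upper quartiles. Relative to that median miR-129-5p lay at -0.44 with TMM and upper quartiles and -0.45 with total reads, and miR-129-1-3p at -0.61 and -0.58 with TMM and total reads. With annotated precursors only the adjusted p was 0.0796 for miR-129-5p and 0.0920 for miR-129-1-3p, and with no filter on low counts 0.0991 and 0.106. That of miR-129-1-3p was also over the threshold with reads of 18 to 26 nt (0.0502) or exact reads only (0.0970). The call of miR-129-5p was also lost without Keluoxin replicate 6 (adjusted p = 0.0666) or model replicate 2 (0.0540), 3 (0.0664) or 4 (0.0722), and that of miR-129-1-3p without any of 9 libraries (0.0532 to 0.0946), all but Keluoxin replicate 4 and model replicates 1 and 6.

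Keluoxin replicate 4 stood apart in more than miR-129. It held 10005 CPM of miR-184-3p, a miRNA abundant in cornea and lens, against 62.1 to 377 CPM in the other 11 libraries, and 1694 CPM of the muscle miRNA miR-1a-3p, against 248 to 394 CPM elsewhere. Its sum over the photoreceptor arms of miR-182, miR-183 and miR-96 was the lowest at 188378 CPM, against 275628 to 377616 CPM in the other Keluoxin libraries and 361119 to 417333 CPM in model. The 5 other Keluoxin libraries lay below all model libraries for each of the 4 arms. In the 3p arms replicate 4 alone broke this pattern, so leaving it out fixed the separation in advance. That separation is therefore no support for a difference. The share of all arms with that pattern over 5 Keluoxin libraries was not counted. A fit without replicate 4 has the same limit for the 3p arms. The edgeR log2 fold change of miR-129-2-3p was then -0.66 (adjusted p = 0.0108), that of miR-129-3p -0.97 (0.00587), that of miR-129-1-3p -0.80 (0.0108) and that of miR-129-5p -0.39 (0.0108). In that fit 88 of 843 arms were lower in Keluoxin and 53 higher. The photoreceptor arms, which mark retina, thus summed to at least 188378 CPM in every library. The part of these other miRNAs in its miR-129 values was not tested.

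The balance of the arms within a library needs no scaling, but the near lack of changed last bases in miR-129-2-3p, described further on, limits it. There were 1.76 to 5.64 5p reads per 3p read with a median of 5.21 in Keluoxin, and 3.75 to 4.60 with a median of 4.17 in model. In Keluoxin 4 libraries lay above all model libraries and replicate 4, at 1.76, lay below them all. The difference in log2 ratio was 0.05 ± 0.26 (SE), with a limma adjusted p of 0.930 over 164 miRNAs, of which 14% passed in either direction. Without Keluoxin replicate 4 the difference was 0.31 (adjusted p = 0.103). That replicate lay 1.66 log2 units below the median of the other Keluoxin libraries, and 4.27% of the 164 miRNAs, miR-129 included, had a deviation at least as large there.

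Which copy the 3p reads came from was then compared. By the deposited alignments, the mir-129-1 share of copy-specific 3p reads was 11.2 to 16.3% with a median of 13.6% in Keluoxin, and 12.7 to 17.3% with a median of 15.1% in model. The groups overlapped. The means were 13.4 ± 1.80% in Keluoxin and 14.8 ± 1.81% in model (SD, n = 6 each), with a p of 0.212 in an exact two-sided permutation test.

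This share turned on which reads were allowed to name the copy. Base 20, where the arms differ, is the last base of a 20-nt read, so a 20-nt read ending in U is listed under mir-129-1 although a 19-nt read of either copy with an added U would have the same letters. The reads below show the 4 possible ends, with base 20 in capitals.
20 nt ending in U: aagcccuuaccccaaaaagU
20 nt ending in C: aagcccuuaccccaaaaagC
20 nt ending in A: aagcccuuaccccaaaaagA
20 nt ending in G: aagcccuuaccccaaaaagG
They had 4767, 6597, 1053 and 289 reads in that order over the 12 libraries. The ends in A and in G belong to the sequence of neither copy. The 19-nt common part itself had 614 reads. For the 20-nt reads ending in U or in C the sources cannot be told apart.

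With 3p reads of at least 21 nt alone, a limit chosen after the values were seen, the mir-129-1 share was 6.02 to 8.44% in Keluoxin and 6.12 to 7.80% in model. The means were 7.32 ± 0.857% in Keluoxin and 6.79 ± 0.720% in model (SD, n = 6 each), and the difference had the opposite sign and a p of 0.264 by the exact permutation test. With only those of them without mismatch, the means were 5.72 ± 0.53% in Keluoxin and 5.66 ± 0.659% in model (SD, n = 6 each). The difference was then 0.0613 points, with a p of 0.868 by the same test. Both limits keep 227 reads of 21 nt that began a base earlier and ended in U where the arms differ. The doubt over an added U holds for these reads too, so neither limit removes it in full. By each of these counts mir-129-2 gave most of the copy-specific 3p reads in each of the 12 libraries.

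**Figure D2:**
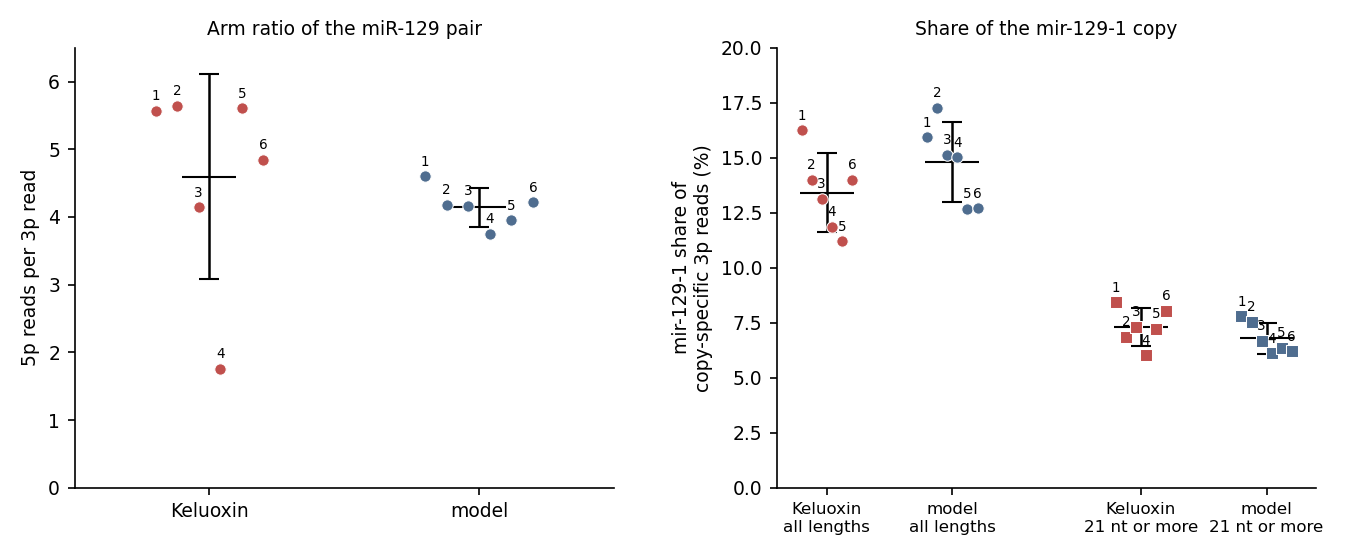
Left, number of 5p reads per 3p read of the miR-129 pair in each library. Right, percentage of copy-specific 3p reads listed under mir-129-1, over reads of all lengths (circles) and over reads of at least 21 nt (squares). Keluoxin is left of model in each pair, numbers are replicates and black marks are mean and SD (n = 6 each); the share of mir-129-1 stays under 10% with the longer reads.

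The 3p arms of the copies ended at different places. The most frequent reads of miR-129-1-3p were the 20-nt form (4767 reads) and the 22-nt form (1737 reads), whereas those of miR-129-2-3p were the 22-nt form (33462 reads), the 20-nt form (6597 reads) and a 21-nt form (4033 reads). They are printed here with base 20 in capitals.
22 nt of mir-129-1: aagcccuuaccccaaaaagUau
22 nt of mir-129-2: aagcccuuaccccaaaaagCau
21 nt of mir-129-2: aagcccuuaccccaaaaagCa
The 20-nt share of the exact 20- and 22-nt reads was higher in mir-129-1 than in mir-129-2 in all 12 libraries, by 46.7 to 62.0 percentage points. The doubt over 20-nt reads ending in U or in C applies to this difference too.

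The 20-nt 3p reads, as listed under each copy, were less frequent in Keluoxin than in model, by a share that was not among the planned measures. For the 20-nt reads ending in U or in C the copy is in doubt as above, so the difference does not show a shorter form of either copy to be less frequent. For mir-129-2 the 20-nt share was 11.4 to 17.2% with a median of 14.0% in Keluoxin and 16.6 to 21.02% with a median of 17.7% in model. In Keluoxin 5 libraries lay below all model libraries, and replicate 4 was the highest. The means were 13.7 ± 2.14% in Keluoxin and 18.3 ± 1.86% in model (SD, n = 6 each; exact two-sided permutation test, p = 0.00649, and 0.00866 adjusted over the 2 copies). For mir-129-1 it was 60.8 to 73.2% with a median of 68.8% in Keluoxin and 70.3 to 78.6% with a median of 76.4% in model, and 4 Keluoxin libraries lay below all model libraries. The means were 68.2 ± 4.71% in Keluoxin and 75.4 ± 2.91% in model (SD, n = 6 each; exact two-sided permutation test, p = 0.00866 alone and adjusted).

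The same was asked of all arms with a measure chosen after these values were seen, the share of exact reads shorter than the longest length that held at least 10% of an arm's exact reads. It was lower in Keluoxin for miR-129-2-3p, with a difference of -6.08 points (19.5 ± 2.52% in Keluoxin and 25.6 ± 1.49% in model, SD, n = 6 each; limma adjusted p = 0.00868) and for miR-129-1-3p, with a difference of -7.09 points (68.7 ± 3.56% in Keluoxin and 75.7 ± 2.87% in model; 0.0165). For miR-129-5p it was 17.9 ± 4.47% in Keluoxin and 23.3 ± 4.34% in model, with an adjusted p of 0.122. Of the 269 arms tested 16.4% were lower in Keluoxin and 21 arms higher, and the median difference was -1.87 points. miR-129-3p had too few exact reads for this test. Leaving out any library kept both 3p calls, with adjusted p of at most 0.0429, and the doubt over 20-nt reads ending in U or in C holds for both.

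**Figure D3:**
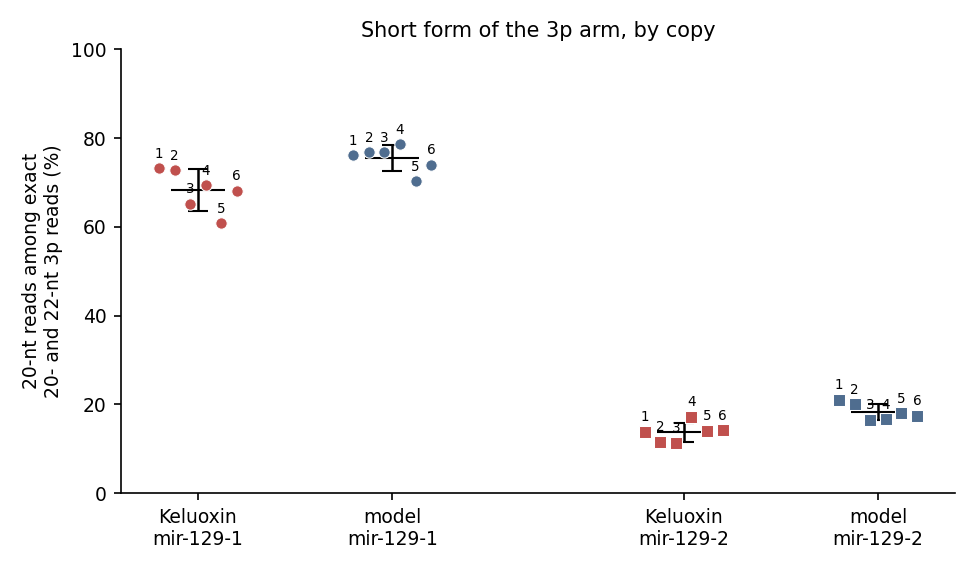
Percentage of 20-nt reads among the exact 20- and 22-nt reads of the 3p arm of each copy, by library, Keluoxin left of model, with replicate numbers and the mean and SD (n = 6 each). The values lie between 60.8 and 78.6% for mir-129-1 and between 11.4 and 21.02% for mir-129-2.

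Mean read length followed these forms, with the same doubt over the 20-nt reads of miR-129-1-3p and miR-129-2-3p. miR-129-1-3p averaged 20.83 ± 0.11 nt in Keluoxin and 20.64 ± 0.06 nt in model (SD, n = 6 each), longer by 0.19 nt with a limma adjusted p of 0.0481, where 5.5% of 400 arms were longer. The call was lost without any of 10 single libraries, all but Keluoxin replicates 2 and 4 (0.0513 to 0.117). miR-129-2-3p averaged 21.71 ± 0.05 nt in Keluoxin and 21.63 ± 0.03 nt in model (adjusted p = 0.0798), and without Keluoxin replicate 4 the p was 0.0113. For miR-129-5p, at 20.88 ± 0.09 nt in Keluoxin and 20.86 ± 0.08 nt in model, the adjusted p was 0.753.

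The 5′ end, which sets the seed, was held tightly. At the most frequent start lay 99.0 ± 0.55% of miR-129-5p reads in Keluoxin and 98.7 ± 0.59% in model, 98.7 ± 0.20% of miR-129-2-3p reads in Keluoxin and 98.7 ± 0.09% in model, and 95.3 ± 0.56% of miR-129-1-3p reads in Keluoxin and 95.9 ± 0.35% in model (SD, n = 6 each). None of the 4 arms passed limma (adjusted p 0.311 to 1.00; 3.5% of 400 arms did in either direction). Over all libraries 3.06% of miR-129-1-3p reads began 1 base earlier and 1.01% of miR-129-2-3p reads 1 base later, which shifts the seed by 1 base.

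The 3′ end of miR-129-5p was far less uniform. The 3 most frequent reads were the annotated 21-nt form and the same form with another last base (capitals).
exact, 84300 reads: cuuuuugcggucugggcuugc
U in place of the last base, 59402 reads: cuuuuugcggucugggcuugU
A in place of the last base, 25453 reads: cuuuuugcggucugggcuugA
The exact form made up 32.2 ± 2.52% of miR-129-5p reads in Keluoxin and 34.6 ± 1.43% in model. The form ending in U made up 22.6 ± 2.08% in Keluoxin and 23.6 ± 2.53% in model, and that ending in A 9.16 ± 1.49% in Keluoxin and 10.5 ± 0.69% in model (SD, n = 6 each). A changed last base and a base added to a read 1 nt shorter give the same letters and cannot be told apart.

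**Figure D4:**
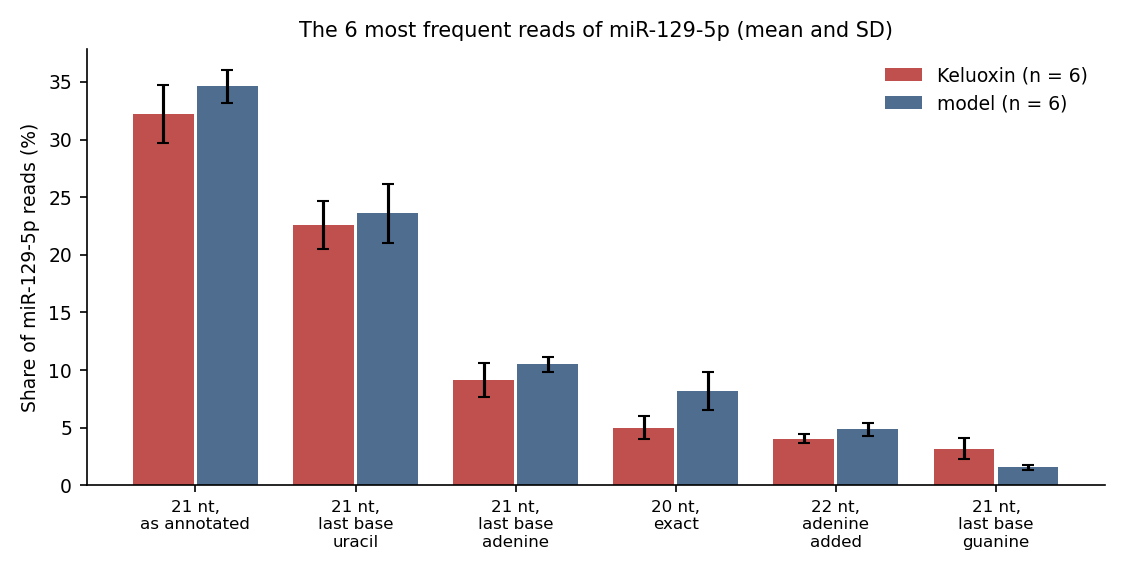
Share of miR-129-5p reads taken by its 6 most frequent read sequences, mean and SD over 6 Keluoxin (left bars) and 6 model libraries (right bars). The annotated 21-nt form takes 32.2% in Keluoxin and 34.6% in model, and the form ending in uracil 22.6% in Keluoxin and 23.6% in model.

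In all, 45.9 ± 3.94% of miR-129-5p reads in Keluoxin and 46.0 ± 2.69% in model had a changed last base, more than in 90.8% of the 400 arms, whose medians were 31.5% in Keluoxin and 26.7% in model. By the base found there, reads with A were fewer in Keluoxin (15.6 ± 1.34%, against 18.1 ± 1.19% in model; limma adjusted p = 0.0378; 15.2% of arms lower). Reads with G were more frequent (4.93 ± 1.33% in Keluoxin and 2.45 ± 0.34% in model; 0.00971; 44.5% of arms higher), as were those with C (1.501 ± 0.36% in Keluoxin and 0.773 ± 0.235% in model; 0.00778; 51.2% of arms higher). For U the adjusted p was 0.709 (23.8 ± 2.07% in Keluoxin and 24.7 ± 2.49% in model; 24.2% of arms passed in either direction).

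Reads without any mismatch were fewer in Keluoxin for 3 of the 4 arms, but for the 3p arms among them the share also depends on how reads were listed. They made up 41.5 ± 2.12% of miR-129-5p in Keluoxin and 47.0 ± 2.44% in model (limma adjusted p = 0.00316), 79.5 ± 1.59% of miR-129-1-3p in Keluoxin and 84.7 ± 1.62% in model (0.000625), and 32.7 ± 7.08% of miR-129-3p in Keluoxin and 43.1 ± 5.91% in model (0.0234). The last call was lost without Keluoxin replicate 1 (0.0521) or model replicate 2 (0.0526). A read of miR-129-3p that reaches base 20 cannot be without mismatch, because the copies differ there. The share of this arm thus also follows read length. A 20-nt read with a changed last base is not listed under mir-129-1 alone, so such reads are missing from the share of miR-129-1-3p. For miR-129-2-3p the share without mismatch was 88.5 ± 3.32% in Keluoxin and 89.8 ± 0.52% in model (0.439). Across the 400 arms 59.5% were lower in Keluoxin, with a median difference of -6.07 points, so a drop of this size was the common case and is no result about miR-129.

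Most of that drop in miR-129-5p lay before the last base. Reads with a mismatch or gap elsewhere made up 12.6 ± 2.13% in Keluoxin and 6.97 ± 0.93% in model (limma adjusted p = 0.000618; 55.8% of arms were higher). At 1 base before the last, 3.56 ± 0.59% of miR-129-5p reads in Keluoxin and 1.54 ± 0.487% in model had a mismatch (4.10 and 2.11% over all reads). The shares were 2.78 ± 1.25% and 1.11 ± 0.362% at 2 bases before it, but 0.148 ± 0.0526% and 0.114 ± 0.0306% at 6 bases before it. For miR-129-1-3p the changed last base was more frequent in Keluoxin (9.97 ± 2.44%, against 6.68 ± 1.33% in model, limma adjusted p = 0.0498, 23.2% of arms higher). The 20-nt reads of this arm, 61.8% of it, cannot count as changed there, since another base 20 would list them elsewhere. Their exact form made up 48.7 ± 3.33% of the arm in Keluoxin and 58.5 ± 2.99% in model. The part of this in the rise of the changed last base was not tested. The kinds of mismatch were chosen for testing after the values were seen.

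miR-129-2-3p almost lacked reads with a changed last base, at 0.00743 ± 0.0182% in Keluoxin and 0.0197 ± 0.0310% in model. Of 2423 reads of 22 nt that began with the first 20 bases of miR-129-1-3p, 686 (28.3%) had other bases at the last 2 places. Of 33462 such reads of miR-129-2-3p none did, which allows a share of up to 0.00897% from counting alone. The shares without mismatch, and to that extent the levels, of the 3p arms are therefore not comparable between the copies. The same limit holds for the number of 5p reads per 3p read. Of miR-129-5p reads, 45.9% in Keluoxin and 46.0% in model had a changed last base. The cause was not tested.

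Among 184 annotated arms with a mean of at least 100 CPM, those whose log2 CPM over the 12 libraries was most like miR-129-5p were let-7j-5p (Pearson r = 0.956), miR-541-5p (0.933), miR-100-5p (0.929), miR-182-5p (0.921) and miR-25-3p (0.896). With the group means taken out the values were 0.962, 0.935, 0.842, 0.808 and 0.756 in the same order. For the sum of the 3p arms they were miR-342-3p (0.839), miR-183-3p (0.752), miR-9-3p (0.723), miR-152-3p (0.721) and miR-125b-5p (0.707), and 0.760, 0.524, 0.593, 0.499 and 0.415 with the group means out. All arms share the libraries and their scaling, so these are descriptions of 12 points. Between miR-129-5p and the 3p sum r was 0.160 over the 12 libraries and 0.879 over the 11 without Keluoxin replicate 4, so that library alone set the low value. In those 11 every Keluoxin library lay below every model library for both, so the gap between the groups enters this r. For this pair r was not computed with the group means out. Without Keluoxin replicate 4 r was 0.810 to 0.892 for the arms named for miR-129-5p and 0.690 to 0.854 for those named for the 3p sum. miR-182-5p, the main photoreceptor miRNA, had 119671 CPM in Keluoxin and 183495 CPM in model.

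Beside miR-129, a list of 17 other neuronal miRNAs had 40 arms tested, of which 1 was higher and 2 lower in Keluoxin by edgeR (8.97% of all 847 arms were higher and 7.79% lower), with a median log2 fold change of -0.05 against 0.03 over all 847 arms and -0.12 over the annotated ones. The 3 called arms were at low levels. miR-218-1-5p averaged 11.6 ± 2.76 CPM in Keluoxin and 6.87 ± 1.29 CPM in model (adjusted p = 0.0304), miR-433-5p 2.28 ± 0.526 CPM in Keluoxin and 3.79 ± 0.818 CPM in model (0.0453), and miR-219a-1-3p 1.09 ± 0.579 CPM in Keluoxin and 2.31 ± 0.490 CPM in model (0.0280). The most abundant arms were miR-9-5p, of neural progenitors and retina, at 58536 ± 12999 CPM in Keluoxin and 69418 ± 3928 CPM in model (log2 fold change -0.25, adjusted p = 0.233), and miR-124-3p, the most neuron-restricted miRNA, at 36842 ± 7956 CPM in Keluoxin and 46656 ± 6558 CPM in model (-0.34, 0.125). miR-7a-5p, miR-9-3p and miR-7b-5p followed, with log2 fold changes of 0.02, -0.25 and 0.01 and adjusted p of 0.946, 0.183 and 0.963.

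**Figure D5:**
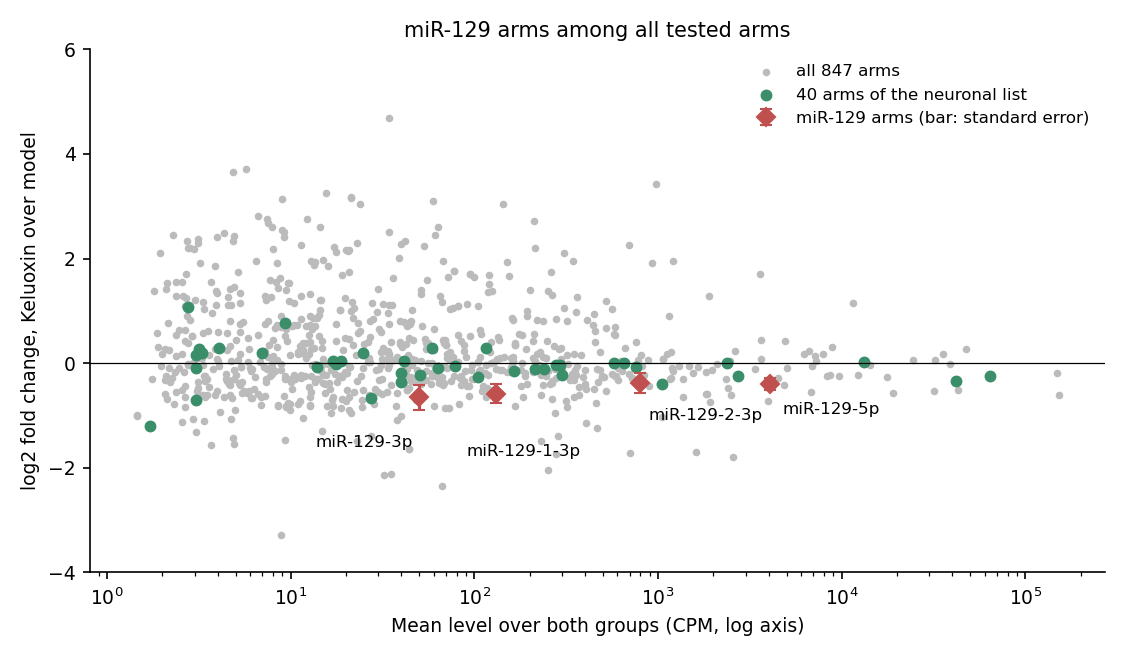
Mean level of each of the 847 arms (CPM, log axis) against its log2 fold change, Keluoxin over model. Grey points are all arms, green points the 40 arms of the neuronal list, and red diamonds the 4 miR-129 arms with their standard error, which lie between -0.38 and -0.66.

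Lists of markers of other cell types were counted in the same way. Over all 847 arms 7.79% were lower in Keluoxin and 8.97% higher, with a median log2 fold change of 0.03 (-0.12 over the annotated ones). With so few arms per list, a single call cannot be told apart from that background. Of 6 photoreceptor arms 3 were lower in Keluoxin (miR-182-5p, miR-183-3p and miR-96-3p; median log2 fold change -0.47), and of 2 endothelial arms miR-126a-3p was lower, with sums of 1104 to 1411 CPM in Keluoxin and 1628 to 2117 CPM in model. The erythroid arm miR-451a-5p was higher (sums of the list 51.3 to 716 CPM in Keluoxin and 53.1 to 72.5 CPM in model). So was the liver arm miR-122-5p (2.39 to 41.1 CPM in Keluoxin and 1.204 to 4.96 CPM in model). Of 5 muscle arms miR-133b-3p was higher, with list sums of 529 to 2128 CPM in Keluoxin and 498 to 689 CPM in model. Keluoxin replicate 4 alone held the 2128 CPM, and the other Keluoxin libraries had at most 669 CPM. Of 6 epithelial arms miR-203-3p was lower (list sums of 200 to 10180 CPM in Keluoxin and 292 to 701 CPM in model). The 10180 CPM was again that of Keluoxin replicate 4, against at most 308 CPM in the other Keluoxin libraries. No arm of the pigment epithelium (4 tested, 10394 to 12089 CPM in Keluoxin and 9627 to 12301 CPM in model) or leukocyte list (3 tested, 70.8 to 91.6 CPM in Keluoxin and 74.3 to 87.4 CPM in model) passed. Their part in the levels of miR-129 was likewise not tested.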

How the data were processed

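The labels' protocols describe NEBNext small RNA libraries of 15 to 35 nt inserts, each from 1 µg of RNA. Retina is the labelled source, although the extraction text mentions an exosome pellet. Bowtie, Novoalign, cutadapt and bcl2fastq are named in the submitters' processing notes, without versions; the build is not given in the sources used here. The deposited counts are whole reads per distinct sequence and precursor, not normalized, with at least 2 reads per sequence; lengths, positions (5 added) and mismatches stand beside them, per the file headers. The authors divided the count of a sequence on several precursors, so the undivided number in its name was used. Reads were assigned to the arm on their side of the precursor's middle. Of 2225 arms, 847 passed edgeR's filter.

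edgeR 4.0.16 in R 4.3.3 (TMM, quasi-likelihood test) gave levels, and limma 3.58.1 gave arm ratios (pseudocount 0.5, both arms with 10 reads or more in 6 libraries) and read forms (at least 50 reads in every library), with Benjamini-Hochberg adjustment at 0.05. Single shares had exact permutation tests, whose smallest p is 0.00216. DESeq2 1.42.0 was an alternative. Python 3.11.15, pandas 2.3.3, NumPy 2.4.6, SciPy 1.17.1 and matplotlib 3.10.9 were used. The tests were checked on simulated data. No library pair was a copy (smallest chi-square per degree of freedom 70.9 over 66 pairs). Nothing says that the samples are separate animals, so p-values reflect only how these samples vary, in part perhaps for technical reasons. The members and lists were chosen with earlier results of these data known; the named arms and reads are the members, their 3 most frequent reads, the 5 arms most like each of the 5p and 3p levels, and the 5 most abundant and the called neuronal arms.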

Additional observations from a re-analysis of the deposited data

Results flagged for a closer look

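In 40 groups of 6 libraries checked for a library far from the others, 2 were found, and chance gives about 1 in 20, or 2. Both are Keluoxin replicate 4 in miR-129-3p, the 3p reads that match both copies: its level of 70.1 CPM, against 26.9 to 35.6 CPM in the other 5 Keluoxin libraries and 42.8 to 73.4 CPM in model, and its share of reads without mismatch of 46.9%, in a group with a median of 30.4% against 42.7% in model. The same library held the high miR-184-3p and miR-1a-3p.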

How the results depend on the processing

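No alternative reversed the log2 fold change of an arm's level. Calls of miR-129-5p and miR-129-1-3p were lost with libraries scaled to total reads (-0.24 and -0.37), with annotated precursors only (-0.29 and -0.46, adjusted p 0.0796 and 0.0920) and with no filter on low counts (-0.40 and -0.58; 0.0991 and 0.106), and that of miR-129-1-3p with reads of 18 to 26 nt (-0.56, 0.0502) or exact reads only (-0.44, 0.0970). miR-129-3p passed with upper quartile scaling (-0.90, 0.0334) and DESeq2 (-0.67, 0.0447). The count of called arms, 142, was 80 with annotated precursors only and 243 with DESeq2. With exact reads only the arm ratio turned to -0.10 (0.795), and the length difference of miR-129-1-3p was 0.15 nt (0.0509) and that of miR-129-2-3p 0.10 nt (0.0460); with at least 10 reads per library the first was 0.19 nt (0.0578). With 3p reads of at least 21 nt miR-129-1-3p had -0.25 (0.251) and the copy share turned to 0.535 points (p = 0.264, exact permutation test). The causes were not tested.

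Leaving out single libraries gave 67 to 246 called arms, where 1 library fewer also changes the arms tested. Log2 fold changes ran from -0.44 to -0.39 for miR-129-5p, -0.80 to -0.50 for miR-129-1-3p, -0.66 to -0.30 for miR-129-2-3p and -0.97 to -0.57 for miR-129-3p. The arm ratio ran from -0.027 to 0.31. Lengths ran from 0.15 to 0.21 nt for miR-129-1-3p, 0.077 to 0.11 nt for miR-129-2-3p and 0.19 to 0.33 nt for miR-129-3p. The start share of miR-129-2-3p ran from -0.057 to 0.045 points and the exact share of miR-129-3p from -13.3 to -8.69. Without both model replicate 1 and Keluoxin replicate 4, chosen after the data were seen, 230 arms were called (miR-129-2-3p -0.69, miR-129-3p -0.97, length of miR-129-2-3p 0.10 nt, adjusted p 0.00503, 0.00387 and 0.0238). That choice also gave -0.81 for miR-129-1-3p, 0.34 for the arm ratio and -13.4 points for the exact share of miR-129-3p.

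The replicate numbers were tried as a block. Deviations of same-numbered libraries correlated by 0.0505, 0.235, 0.264, 0.109, 0.132 and 0.102, and 2 of 12 libraries were nearest to their own number, so they were not taken as pairs. With the replicate block miR-129-5p had -0.42 (adjusted p = 0.0576), miR-129-3p -0.71 (0.0482), and the 20-nt share of mir-129-2, still at -4.59 points, a p of 0.0625 (exact sign flips). Depth limits miR-129-3p and miR-129-1-3p most, with as few as 51 and 146 reads in a library.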

Other observations

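The exact reads listed under mir-129-2 alone on the 3p arm fell into 6724 reads with the alignment status R and 39602 with the status U. Of the first kind 6722 lay wholly within the reverse complement of the Mir129b hairpin, which overlaps mir-129-2 on the other strand, and of the second kind 0 did. No read is listed under Mir129b. The meaning of the status letters is not given in the sources used here.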
